A study of Mus musculus with 3 samples.

Results

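The genes described here encode the proteins of the mitochondrial respiratory chain and of the ATP synthase, together with a few of their assembly factors. They were chosen by name alone. The set takes every gene whose symbol starts with Nduf, Sdha, Sdhb, Sdhc, Sdhd, Uqcr, Cox4i, Cox5, Cox6, Cox7, Cox8 or Atp5, plus the protein genes of the mitochondrial genome. This gave 109 of the 27998 genes in the table, of which 96 are nuclear and 13 mitochondrial. The nuclear members comprised 38 genes of complex I, 4 of complex II, 8 of complex III, 18 of complex IV, 15 of complex V (the ATP synthase) and 13 assembly or accessory genes. Genes were placed in complexes by symbol. Ndufa4 and Ndufa4l2 are therefore counted in complex I in all values below, although Ndufa4 encodes a subunit of complex IV.

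The respiratory chain passes electrons from NADH and succinate to oxygen and pumps protons across the inner mitochondrial membrane, and the ATP synthase uses the returning protons to make ATP. Complexes I, III, IV and V mix subunits from the nuclear and the mitochondrial genome, whereas complex II is wholly nuclear, so cells must run both genomes side by side to build the chain. Regulatory T cells (Tregs), the CD4 T cells that restrain immune responses under the transcription factor Foxp3, are known to rely on oxidative metabolism more than many effector T cells do.

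Single-cell RNA was measured in Tregs from the epidermis of the back, from the dermis and from lymph node of adult mice, with 1 library for each tissue. All animals carried the same reporter allele, in the strain labelled FOXP3-EGFP (C.Cg-Foxp3tm2Tch/J), which puts green fluorescence into cells that express Foxp3, and no other allele or agent is named. Thermolysin parted the skin layers, collagenase digested the dermis and the lymph node was mashed, after which GFP+ CD4+ CD3+ CD45+ cells were sorted. How many animals were used, of which sex, and whether they were pooled is not given in the sources. Both skin libraries were made with the v3 form of the 10x Genomics 3′ kit and the lymph node library with v2, so for every comparison with lymph node the tissue and the kit cannot be told apart.

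Cells with at least 500 UMIs (unique molecular identifiers, each marking 1 captured transcript) and at most 10% of UMIs on the mitochondrial genes were kept. This left 297 of 360 barcodes in epidermis, 875 of 1077 in dermis and 9400 of 9419 in lymph node, with 2205131, 4630059 and 32906839 UMIs and median depths of 6671, 4726 and 3022 UMIs per cell. All 4 Treg markers (Foxp3, Il2ra, Ctla4 and Ikzf2) were detected in each library and together reached 2914, 4353 and 1148 CPM in epidermis, dermis and lymph node, where CPM scales the UMIs of each library to the same sum. Foxp3 alone stood at 91.6, 146 and 21.8 CPM, and the largest of the 4 in lymph node was Ikzf2, at 746 CPM. Of the 13 lists of other cell types, the dendritic and Langerhans cell list was the largest, at 442, 501 and 220 CPM. Cd74 made up 365, 360 and 182 CPM of this. The defining dendritic marker Itgax was at 0 in all 3 libraries and the Langerhans marker Cd207 at 0 in dermis and lymph node, with 2, 3 and 2 of the 8 markers at 0. Cd207 was detected in epidermis, Flt3 in lymph node, and Epcam, H2-Aa, H2-Ab1 and Xcr1 in all 3 libraries. The summed keratinocyte markers reached 78.5, 189 and 28.8 CPM, with 1, 0 and 4 of 11 markers at 0, and the adipocyte list 5.44, 55.7 and 0.638 CPM, almost all of it Fabp4 in the skin libraries. No other list passed 85.1 CPM, the endothelial and mural sum in lymph node. The part of these cells in the results was not tested. A stricter gate for T cells kept 271, 838 and 9300 cells, which is most of them, and so cannot decide it. With this gate the nuclear median log2 ratios were 0.32, -0.20 and -0.56 for epidermis over dermis, epidermis over lymph node and dermis over lymph node. The mitochondrial ones were -0.16, 1.37 and 1.56. Xist was seen in 38.4%, 84.5% and 75.4% of cells and a Y-linked transcript in 35.0% of epidermal and 8.11% of dermal cells. No lymph node cell of 9400 had one, which allows a share of up to 0.0319%. A total of 41 kept barcodes occurred in both skin libraries, and none of them in lymph node. Of these, 33 had more UMIs in epidermis and 8 more in dermis, and they held 24.3% of the epidermal and 5.29% of the dermal UMIs. Results for the members as a whole, for the complexes and for the other lists are therefore given with and without them. Single genes are given for all kept cells, and without these barcodes where that turns a stated direction, order or call. Without them no member with at least 10 CPM in 1 library moved by more than 1.5-fold in any comparison. Of the 85 such nuclear members, 12 turned direction in epidermis over dermis, 12 in epidermis over lymph node and 1 in dermis over lymph node. No mitochondrial member did.

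Of the 96 nuclear members, 85 reached 10 CPM in at least 1 library, and so did all 13 mitochondrial members. A level of 10 CPM corresponds to 22.1 UMIs in epidermis and 46.3 in dermis, against 329 in lymph node. The member just inside this limit was Ndufaf5, with 10.6 CPM in lymph node, and the one just outside was Sdhaf3, with 9.60 CPM there. The 11 members under the limit were Cox4i2, Cox6a2, Cox6b2, Cox7a1, Cox7b2, Cox8b, Cox8c, Ndufa4l2, Atp5s, Ndufaf6 and Sdhaf3. Gene positions below are from the GENCODE vM21 annotation of mm10, in which all 109 members were found, whereas promoter windows use RefSeq starts.

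Neighbouring mitochondrial genes share bases, and the shared stretches are shown because they touch mt-Atp8, mt-Nd4l and mt-Nd6, the 3 mitochondrial members with the largest ratios of epidermis to lymph node. A read lying wholly within a stretch shared on 1 strand cannot be given to 1 gene on sequence alone. Read lengths were not compared with these stretches, and the part of shared bases in the ratios was not tested. The reference sequence of mm10 is printed 5′ to 3′, with the shared bases in capitals. The genes mt-Atp8 and mt-Atp6 share 43 bases (window chrM:7907-7989, plus strand), mt-Nd4l and mt-Nd4 share 7 (chrM:10147-10193, plus strand). The ends of mt-Nd5 (chrM:13532-13565, plus strand) and mt-Nd6 (chrM:13552-13585, minus strand) cover the same 14 bases on opposite strands.
mt-Atp8/mt-Atp6: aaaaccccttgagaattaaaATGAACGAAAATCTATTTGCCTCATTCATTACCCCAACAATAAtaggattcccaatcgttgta
mt-Nd4l/mt-Nd4: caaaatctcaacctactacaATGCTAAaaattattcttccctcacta
mt-Nd5 end: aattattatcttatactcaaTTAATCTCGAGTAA
mt-Nd6 end: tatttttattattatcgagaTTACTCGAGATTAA

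The nuclear and the mitochondrial members stood in opposite orders across the 3 libraries. The nuclear members together made up 2.0% of UMIs in epidermis (exact 95% interval 1.98 to 2.02), 1.65% in dermis (1.63 to 1.66) and 2.28% in lymph node (2.27 to 2.28). The mitochondrial members made up 3.98% (3.96 to 4.01), 4.54% (4.52 to 4.56) and 2.35% (2.35 to 2.36). Dermis was thus lowest for the nuclear members and highest for the mitochondrial ones, and lymph node the reverse. For each UMI of a nuclear member there were 1.99 mitochondrial UMIs in epidermis (1.97 to 2.02) and 2.76 in dermis (2.73 to 2.78), against 1.03 in lymph node (1.03 to 1.04). These intervals, and all those below, are exact and cover counting error only: with 1 library per tissue no spread between animals was measured and no test between tissues was possible. The 3 comparisons also share libraries, so they are not independent of each other.

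Leaving out all shared barcodes gave 2.27 mitochondrial UMIs per nuclear UMI in epidermis and 2.80 in dermis, with the nuclear share at 1.81% and 1.63% of UMIs. The order of the 3 libraries was the same. With the limit on the mitochondrial share set to 5% of a cell's UMIs the ratios were 1.74, 2.14 and 1.02, and with no limit 2.52, 3.58 and 1.04. Ribosomal protein genes took 25.3%, 18.9% and 35.7% of UMIs, the same order as the nuclear members, and the part of this in the nuclear share was not tested. Counted over UMIs outside the mitochondrial and ribosomal protein genes, the nuclear share was 2.83% in epidermis and 2.15% in dermis, against 3.68% in lymph node, which is again the same order.

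The order held within each complex that has members from both genomes. In complex I, the NADH dehydrogenase, the mitochondrial UMIs per nuclear UMI were 1.20 in epidermis and 1.70 in dermis, against 0.583 in lymph node. Complex III, the cytochrome bc1 complex, had 1.69, 2.23 and 1.12. Complex IV, the cytochrome c oxidase that hands electrons to oxygen, had 4.08, 5.51 and 1.89. Complex V had 1.36, 1.83 and 0.878. The lymph node library lay below both skin libraries by the widest margin in complexes I and IV and by the narrowest in complexes III and V. Without the shared barcodes the ratios in epidermis and dermis were 1.32 and 1.72 in complex I, 1.85 and 2.26 in complex III, 4.66 and 5.61 in complex IV and 1.60 and 1.87 in complex V, in the same order.

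**Figure D1:**
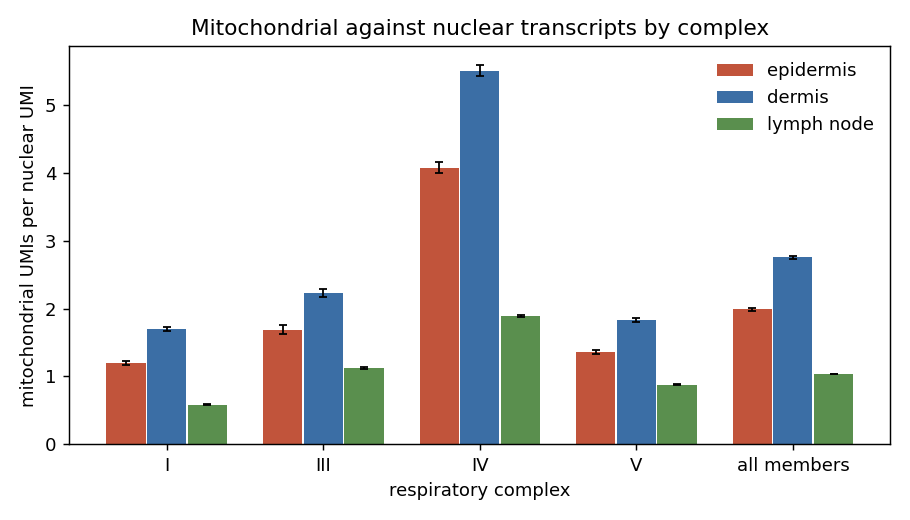
Mitochondrial UMIs per nuclear UMI of the respiratory chain, for all members and for each complex that has both kinds (x axis), in epidermis, dermis and lymph node, 1 library each, with exact 95% intervals of counting error. Dermis is highest and lymph node lowest in every group, from 0.583 in lymph node complex I to 5.51 in dermal complex IV.

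Among the nuclear members, epidermis stood slightly but broadly above dermis. The median ratio of the 85 members was 1.25-fold (log2 0.32), beside a median log2 ratio of 0.08 over all 8093 genes with at least 10 CPM in 1 library, so the members lay 0.24 above the median gene. Of the 85 members, 83 had a ratio above 1, and 2 below it, against 56.6% and 43.4% of all genes. A ratio of at least 1.5-fold was the size counted as a difference: 6 members were higher by that much and 0 lower, against 15.6% and 10.2% of all genes. The shift was thus wide across members and small in each, and the count past 1.5-fold (6 of 85) was a smaller share than in the background. Leaving out all shared barcodes brought the median log2 ratio to 0.18, with 3 members higher, 1 lower and 71 of 85 above 1, and leaving out only the smaller copy of each gave 0.33. Restricted to cells with Xist UMIs alone (111 and 723 cells) the median was 0.21 with 3 members higher, and to cells with Y-linked UMIs alone (101 and 55 cells) 0.39 with 23 higher.

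Against lymph node, the nuclear members were lower in both skin libraries, and more so in dermis. The median log2 ratio was -0.19 for epidermis and -0.55 for dermis, beside 0.22 and 0.14 for all genes, so the members lay -0.40 and -0.69 from the median gene. In epidermis 6 of 85 members were lower by at least 1.5-fold and 0 higher, against 11% and 34.8% of all genes. Leaving out all shared barcodes raised that count to 19, against 14.5% of all genes then, and moved the median log2 ratio to -0.32. In dermis 41 of 85 were lower and 0 higher, against 21.8% and 35.4% of all genes. Without regard to size, 67 of 85 members were below lymph node and 18 above it in epidermis, against 38% and 62% of all genes. In dermis 81 were below and 4 above, against 44.2% and 55.8%. With shared barcodes left out, 42 members were lower by 1.5-fold in dermis, with a median log2 ratio of -0.57.

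The mitochondrial members did not share these directions. Epidermis lay a little below dermis, with a median log2 ratio of -0.15. By 1.5-fold 0 of 13 members were apart, against 15.6% of all genes higher and 10.2% lower. Against lymph node the medians were 1.37 in epidermis and 1.57 in dermis. In epidermis 9 of 13 and in dermis 11 of 13 members were at least 1.5-fold higher, and none was lower. These counts stand beside 34.8% and 35.4% of all genes higher. Once shared barcodes were removed, the 3 medians were -0.10, 1.41 and 1.58, and 9 and 10 members were higher than lymph node. Because the filter on cells caps the mitochondrial share, it also bounds these levels: it removed 17.5% of epidermal and 18.8% of dermal barcodes but 0.202% of lymph node barcodes.

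How the libraries were scaled moved the counts of nuclear members. Scaling shifts the log2 ratios of all genes in a comparison by the same amount. The place of the members beside the median gene can therefore change only through genes that cross 10 CPM. With TMM factors (trimmed mean of M values) the median log2 ratio of all genes went from 0.22 to -0.29 for epidermis against lymph node, from 0.14 to -0.27 for dermis against lymph node and from 0.08 to -0.03 between the skin libraries. Against lymph node the nuclear median went to -0.67 and -0.92, which is -0.37 and -0.65 from the median gene, and 58 and 70 of the 86 members that then reached 10 CPM were lower by at least 1.5-fold. With TMM 2 members were higher and 1 lower in epidermis than in dermis, and with totals that leave out the mitochondrial and ribosomal protein genes 24 were higher. The percentages of all genes given above were counted with CPM and do not apply to these counts. TMM also lowered to 73 of 86 the members above 1 in epidermis over dermis, and left 10 of the 13 mitochondrial members above lymph node in epidermis and 13 in dermis.

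**Figure D2:**
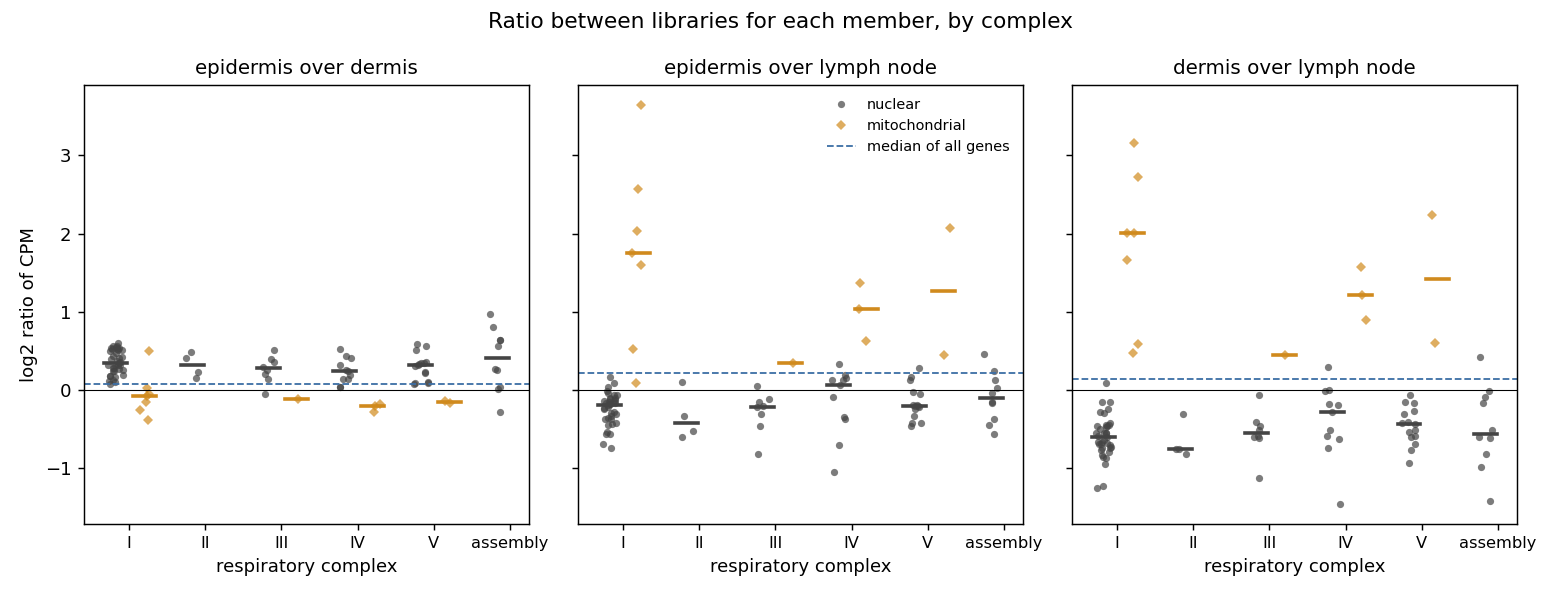
The log2 ratio of CPM (y axis) of every member with at least 10 CPM in 1 library, by complex (x axis), in the 3 comparisons; grey circles are nuclear and orange diamonds mitochondrial genes, short bars are medians, and the dashed line is the median of all 8093 genes. Nuclear members lie mostly above the dashed line in epidermis over dermis and below it against lymph node, where all mitochondrial members lie above 0 with CPM scaling (with TMM 3 of 13 turn in epidermis: mt-Nd1, mt-Cytb and mt-Atp6).

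In complex I the nuclear subunits varied as a block. All 37 subunits with a usable level had a ratio above 1 in epidermis over dermis, against 56.6% of all genes, with a median log2 of 0.34. Of these, 1 passed 1.5-fold, against 15.6% of all genes. Against lymph node 34 of 37 were below it in epidermis (median -0.19) and 36 of 37 in dermis (median -0.60), against 38% and 44.2% of all genes. By 1.5-fold 2 were lower in epidermis and 20 in dermis, against 11% and 21.8% of all genes. The epidermal count was thus a smaller share than in the background. With TMM, and also without the shared barcodes, 35 of 37 were above 1 in epidermis over dermis, and the latter left 0 past 1.5-fold there and 7 lower than lymph node in epidermis. Ndufb3 (ENSMUSG00000026032, chromosome 1, 58586384 to 58595964), a subunit of the membrane arm, stood at 155 CPM in epidermis and 102 in dermis, against 170 in lymph node. Its epidermis to dermis ratio of 1.51 (1.31 to 1.74) was the highest of the subunits with at least 50 CPM. Dermis was the low library for this gene, and the interval of the ratio of epidermis to lymph node includes 1 (0.910, 0.814 to 1.02). After removal of shared barcodes, these ratios were 1.41 (1.20 to 1.66), under 1.5-fold, and 0.843 (0.737 to 0.959).

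Ndufb9, another subunit of the membrane arm, stood at 196, 132 and 210 CPM in epidermis, dermis and lymph node, with an epidermis to dermis ratio of 1.48 (1.31 to 1.68). Ndufab1, the acyl carrier protein that also serves mitochondrial fatty acid synthesis, stood at 121, 81.9 and 124 CPM, and its ratio was likewise 1.48 (1.26 to 1.73). In both genes the interval of the epidermis to lymph node ratio includes 1, and dermis was the low library. Without the shared barcodes that ratio was 0.817 (0.724 to 0.920) for Ndufb9 and 0.737 (0.623 to 0.867) for Ndufab1, so that their intervals no longer include 1. Ndufa1, a small subunit needed to build the membrane arm, was an exception, at 251, 238 and 223 CPM, so that all 3 libraries lay within 1.13-fold (1.03 to 1.23 for epidermis over lymph node). Its order is not firm: the log2 ratio of epidermis over lymph node went from 0.17 to -0.31 with TMM, and that of epidermis over dermis from 0.08 to -0.18 without the shared barcodes.

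The complex I subunits furthest below lymph node were of several kinds. Ndufa3 (chromosome 7, 3617373 to 3620327), an accessory subunit, stood at 281 CPM in epidermis and 192 in dermis, against 456 in lymph node, or 0.617 (0.569 to 0.669) and 0.421 (0.393 to 0.450) times the lymph node level. Ndufs6 (chromosome 13, 73319838 to 73328542), a zinc-binding subunit of the peripheral arm, stood at 114, 81.2 and 191 CPM, or 0.599 (0.526 to 0.679) and 0.426 (0.382 to 0.472) times. The iron-sulfur subunit Ndufs8, part of the electron path itself, stood at 82.5, 57.9 and 111 CPM, or 0.742 (0.636 to 0.862) and 0.521 (0.458 to 0.590) times. The 3 libraries kept 1 order in these genes, with lymph node highest and dermis lowest and no overlap of the counting intervals of the CPM values.

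The 7 mitochondrial subunits of complex I, which form the proton-pumping core of the membrane arm, differed widely in how far the skin libraries stood above lymph node. mt-Nd6, the one protein gene on the opposite strand, stood at 77.5 CPM in epidermis and 55.1 in dermis, against 6.20 in lymph node, which is 12.5-fold (10.1 to 15.4) and 8.88-fold (7.36 to 10.7) above lymph node. It was also the mitochondrial gene with the highest epidermis to dermis ratio, 1.41 (1.15 to 1.72), on 171 and 255 UMIs. mt-Nd4l stood at 231, 257 and 38.9 CPM, or 5.94-fold and 6.60-fold above lymph node. These genes and mt-Nd5, at 489, 482 and 120 CPM, had the fewest UMIs of the 7 in every library and ratios to lymph node of 4.03 or more.

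mt-Nd3 stood at 788, 939 and 234 CPM, or 3.36-fold and 4.01-fold above lymph node. mt-Nd2 stood at 2049, 2156 and 679 CPM, or 3.02-fold and 3.18-fold. The remaining pair, which encode subunits of the same membrane arm, lay closer to lymph node. mt-Nd4 stood at 1848, 1923 and 1282 CPM, or 1.44-fold (1.40 to 1.49) and 1.5-fold (1.47 to 1.54). mt-Nd1 stood at 1989, 2596 and 1872 CPM, or 1.06-fold (1.03 to 1.10) and 1.39-fold (1.36 to 1.41), and was the lowest of the 13 in epidermis against lymph node. Its log2 ratio there turned from 0.09 to -0.39 with TMM, and it was also below 0 with the other 2 scalings and at the 5% mitochondrial limit.

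**Figure D3:**
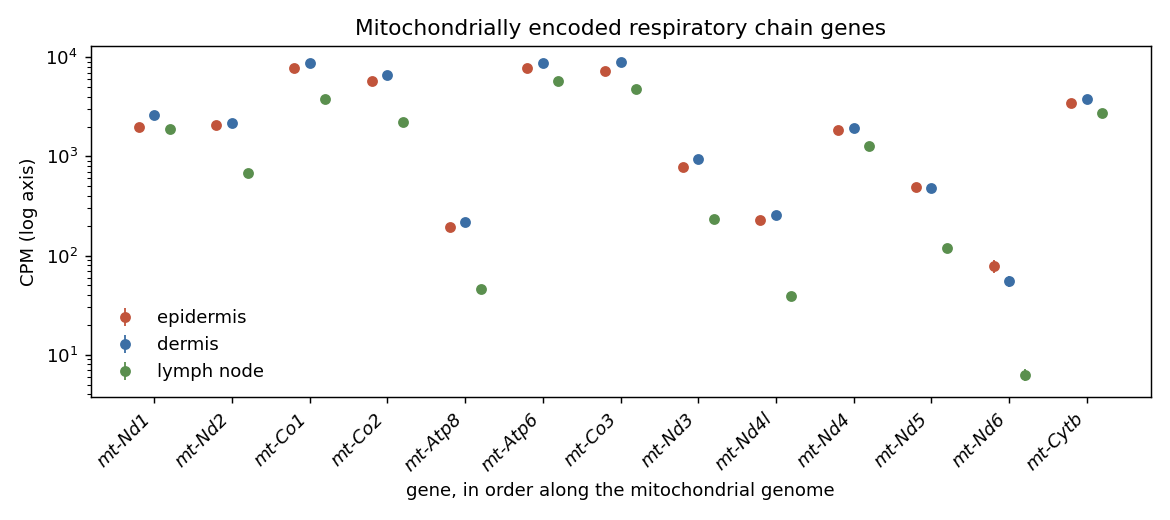
CPM (log axis) of the 13 mitochondrial protein genes in epidermis, dermis and lymph node, 1 library each, ordered along the mitochondrial genome, with exact 95% intervals of counting error where wider than the symbol. On this CPM scale lymph node lies lowest at every gene (with TMM not so for mt-Nd1, mt-Cytb and mt-Atp6 in epidermis), with the smallest gap at mt-Nd1 (1989, 2596 and 1872 CPM) and the widest at mt-Nd6 (77.5, 55.1 and 6.20 CPM).

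Complex II oxidises succinate and belongs to the citric acid cycle as well as to the chain. Its 4 subunits had a median log2 ratio of 0.32 in epidermis over dermis, -0.43 in epidermis over lymph node and -0.75 in dermis over lymph node, and 0.18, -0.48 and -0.78 without the shared barcodes. Sdha, the flavoprotein that oxidises succinate, stood at 98.9 CPM in epidermis and 70.4 in dermis, against 124 in lymph node. Sdhb (chromosome 4, 140961203 to 140979193), the iron-sulfur subunit, stood at 128, 116 and 194 CPM, or 0.661 (0.585 to 0.744) and 0.595 (0.544 to 0.650) times lymph node. With shared barcodes left out, Sdhb stood at 102 CPM in epidermis, below the 115 CPM in dermis. The membrane anchors divided. Sdhc stood at 44.4, 37.8 and 63.8 CPM and followed Sdhb, whereas Sdhd stood at 74.4, 55.9 and 69.3 CPM, with epidermis at 1.07 times lymph node (0.911 to 1.26), or 0.90 (0.732 to 1.09) without the shared barcodes. Of the UMIs of the 4 genes, Sdhd took 21.5% in epidermis (18.6 to 24.6) and 20% in dermis (17.9 to 22.3), against 15.3% in lymph node (14.8 to 15.9), and the skin intervals did not reach that of lymph node, with the shared barcodes or without (20.4%, 17 to 24.2, and 20%, 17.8 to 22.3).

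In complex III, Uqcrc1 (ENSMUSG00000025651, chromosome 9, 108936633 to 108949623), a core subunit, was the member furthest below lymph node. It stood at 99.3 CPM in epidermis and 80.8 in dermis, against 176 in lymph node, or 0.565 (0.491 to 0.647) and 0.459 (0.413 to 0.510) times. The Rieske iron-sulfur subunit Uqcrfs1 (chromosome 13, 30540308 to 30545362) was the flattest of the complex, at 144, 149 and 156 CPM. It was also the subunit with the lowest epidermis to dermis ratio among those with at least 50 CPM, at 0.963 (0.841 to 1.10), and its interval includes 1 in all 3 comparisons. The log2 ratio of -0.05 between the skin libraries was 0.67, past 1.5-fold, in cells with Y-linked UMIs only, and slightly above 0 with totals that leave out the mitochondrial and ribosomal protein genes and with the mean of cell CPM. Once shared barcodes were removed, epidermis was 0.838 (0.728 to 0.959) times lymph node, and Ndufa1 and Sdhb had lower epidermis to dermis ratios. The lone mitochondrial subunit, mt-Cytb (cytochrome b), stood at 3484, 3759 and 2750 CPM, or 1.27-fold (1.24 to 1.30) and 1.37-fold (1.34 to 1.39) above lymph node. With TMM its log2 ratio of epidermis over lymph node turned from 0.34 to -0.14.

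Complex IV had the nuclear subunits nearest to lymph node, with a median log2 ratio of 0.07 in epidermis and -0.28 in dermis. The epidermal median went to -0.18 without the shared barcodes and to -0.41 with TMM, and lay below 0 in 7 of 13 alternatives. Cox8a (ENSMUSG00000035885, chromosome 19, 7215153 to 7217616), a small subunit of the inner membrane, was the member with the highest ratio to lymph node among those with at least 50 CPM. It stood at 643 CPM in epidermis and 625 in dermis, against 510 in lymph node, or 1.26-fold (1.19 to 1.33) and 1.23-fold (1.18 to 1.28) higher in skin. With TMM both directions turned, from log2 0.33 to -0.14 in epidermis and from 0.29 to -0.08 in dermis, and without the shared barcodes Sdhaf1 had the higher ratio in epidermis. Cox7c and Cox6c, also small subunits, stood at 672, 590 and 587 CPM and at 665, 605 and 608 CPM, and the intervals of their dermis to lymph node ratios include 1. With TMM the log2 ratio of epidermis over lymph node for Cox7c went from 0.19 to -0.29. Cox6a1, which sits where the monomers of the oxidase dimer meet, went the other way, at 240, 234 and 392 CPM, or 0.612 (0.560 to 0.668) and 0.597 (0.561 to 0.635) times lymph node. Its epidermis to dermis ratio fell below 1 without the shared barcodes (0.902, 0.796 to 1.02).

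Cox7a2l (ENSMUSG00000024248, chromosome 17, 83501918 to 83517330) was furthest below lymph node in both skin libraries among the nuclear members with at least 10 CPM in 1 library. Its protein, also called Scaf1, joins complex III to complex IV in supercomplexes in place of Cox7a2. It stood at 391 CPM in epidermis (365 to 418) and 294 in dermis (279 to 310), against 805 in lymph node (795 to 815), with no overlap of the intervals. After removal of shared barcodes, epidermis stood at 428 CPM and Uqcrc1 and Sdhb lay further below lymph node there. The ratio to lymph node was 0.486 (0.453 to 0.520) in epidermis and 0.366 (0.346 to 0.386) in dermis. Cox7a2 itself stood at 338, 284 and 323 CPM and showed no such gap. Of the UMIs of Cox7a1, Cox7a2 and Cox7a2l together, Cox7a2l thus took 53.5% in epidermis (51.0 to 56.0) and 50.8% in dermis (48.9 to 52.7), against 71.3% in lymph node (70.8 to 71.8). Without the shared barcodes the skin shares were 59.3% (56.5 to 62.1) and 50.6% (48.6 to 52.5).

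The 3 mitochondrial subunits of complex IV form its catalytic core. mt-Co1, which holds the site where oxygen is reduced, stood at 7732 CPM in epidermis and 8782 in dermis, against 3780 in lymph node, or 2.05-fold (2.01 to 2.08) and 2.32-fold (2.30 to 2.35) above lymph node. mt-Co2, which takes electrons from cytochrome c, stood at 5784, 6638 and 2232 CPM, or 2.59-fold (2.54 to 2.64) and 2.97-fold (2.94 to 3.01). mt-Co3 stood at 7311, 8876 and 4753 CPM, or 1.54-fold (1.51 to 1.56) and 1.87-fold (1.85 to 1.89). All 3 were highest in dermis, where the epidermis to dermis ratio was 0.880, 0.871 and 0.824.

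In complex V, 15 of 15 nuclear subunits had a ratio above 1 in epidermis over dermis, against 56.6% of all genes. In dermis 15 of 15 were below lymph node, against 44.2% of all genes. The first count was 11 of 15 with TMM and 13 of 15 without the shared barcodes, and the second was 15 with both. Subunit c, which forms the rotating ring, comes as the same mature protein from 3 genes. Atp5g2 (ENSMUSG00000062683, chromosome 15, 102662864 to 102672352) stood at 484 CPM in epidermis and 322 in dermis, against 490 in lymph node, with an epidermis to dermis ratio of 1.5 (1.39 to 1.62), or 1.41 (1.29 to 1.54) without the shared barcodes. Atp5g1 stood at 236, 165 and 316 CPM, and Atp5g3 at 243, 190 and 199 CPM, so that Atp5g1 was highest in lymph node and Atp5g3 in epidermis. The latter order turned with TMM, where the log2 ratio of Atp5g3 in epidermis over lymph node went from 0.28 to -0.19, with median-of-ratios scaling and without the shared barcodes (188 CPM in epidermis). Atp5g1 took 24.5%, 24.4% and 31.4% of the UMIs of the 3 genes and Atp5g3 25.2%, 28.0% and 19.8%. The intervals for lymph node (30.9 to 31.9 and 19.4 to 20.2) did not meet those of either skin library, nor did they without the shared barcodes (22.0%, 19.9 to 24.3, and 23.9%, 22.4 to 25.5, for Atp5g1, and 22.8%, 20.6 to 25.2, and 27.9%, 26.3 to 29.5, for Atp5g3).

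Atp5k, which encodes the e subunit at the dimer interface, stood at 328, 221 and 299 CPM, with an epidermis to dermis ratio of 1.48 (1.35 to 1.63). Atp5d, the delta subunit of the central stalk, stood at 348, 330 and 397 CPM and hardly differed between the skin libraries (1.06, 0.966 to 1.15), with a ratio of 0.991 (0.895 to 1.10) without the shared barcodes. Of the mitochondrial pair, mt-Atp6, the proton channel subunit, stood at 7863, 8706 and 5742 CPM, or 1.37-fold (1.35 to 1.39) and 1.52-fold (1.5 to 1.53) above lymph node, though with TMM the log2 ratio for epidermis went from 0.45 to -0.03. mt-Atp8 stood at 194, 217 and 46.1 CPM, or 4.20-fold (3.77 to 4.68) and 4.70-fold (4.34 to 5.10). Although both are read from 1 shared transcript, mt-Atp8 took 2.40% of their joint UMIs in epidermis (2.18 to 2.64), 2.43% in dermis (2.28 to 2.58) and 0.796% in lymph node (0.757 to 0.837). The other overlapping pair split alike: mt-Nd4l took 11.1% of the UMIs it shared with mt-Nd4 in epidermis and 11.8% in dermis, against 2.94% in lymph node. With shared barcodes left out, mt-Atp8 took 2.33% and 2.42% and mt-Nd4l 10.6% and 11.8% in epidermis and dermis.

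The make-up of the mitochondrial UMIs was thus nearly the same in both skin libraries and different in the lymph node library, where kit and tissue cannot be told apart. mt-Atp6 took 19.7%, 19.2% and 24.4% of the UMIs of the 13 genes, mt-Cytb 8.74%, 8.28% and 11.7%, and mt-Nd1 4.99%, 5.72% and 7.95%. Going the other way, mt-Co2 took 14.5%, 14.6% and 9.48%. Leaving out the shared barcodes gave 20% and 19.2% for mt-Atp6, 8.51% and 8.21% for mt-Cytb, 4.78% and 5.72% for mt-Nd1 and 14.5% and 14.6% for mt-Co2 in the skin libraries. The 5 genes with the fewest CPM in lymph node (mt-Nd6, mt-Nd4l, mt-Atp8, mt-Nd5 and mt-Nd3) were the 5 with the largest ratios of epidermis to lymph node, a relation in which the lymph node level stands on both sides.

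Of the 13 assembly or accessory members 10 had a usable level, and their counts were small. In epidermis over dermis 4 were at least 1.5-fold higher, against 15.6% of all genes. Together with Ndufb3 and Atp5g2 they make up the 6 named above. Once shared barcodes were removed, 3 of these 4 stayed past 1.5-fold, Ndufaf2 did not (1.16, 0.719 to 1.81), and Ndufaf5 was lower by that much. Ndufaf1, an early complex I assembly factor, had 30 UMIs in epidermis and 32 in dermis, against 610 in lymph node, or 13.6, 6.91 and 18.5 CPM. Sdhaf4, which helps to mature the succinate dehydrogenase flavoprotein, stood at 39.0, 22.2 and 43.9 CPM, with an epidermis to dermis ratio of 1.75 (1.30 to 2.36). The complex I factors Ndufaf2 and Ndufaf7 both had a ratio of 1.56, with lower bounds of 1.07 and 1.04. Sdhaf1, which guides iron-sulfur clusters into Sdhb, stood at 97.5, 81.6 and 82.3 CPM and was 1.19-fold (1.03 to 1.36) above lymph node in epidermis, a log2 ratio that turned from 0.25 to -0.23 with TMM.

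The tissue-restricted isoforms were almost absent, and 1 barcode held most of what was seen in dermis. Cox4i1 took 99.9%, 99.7% and 100% of the Cox4i UMIs. All 10 dermal UMIs of Cox4i2, an isoform known from lung and oxygen-sensing cells, and all 8 of Ndufa4l2, a relative of the oxidase subunit Ndufa4, came from a single dermal barcode. That barcode had 30503 UMIs, no UMI of the 4 T cell genes, and 185 of the 187 dermal UMIs of Rgs5, Acta2 and Myh11, which mark mural cells of blood vessels. The lone epidermal Cox4i2 UMI lay in the same barcode of the epidermal library, where it had 1387 UMIs and 10 of the 13 mural UMIs. Both isoforms had 0 UMIs in T-cell-marked skin cells. Cox7a1, the heart and muscle isoform, had 4, 7 and 30 UMIs, and Cox6b2, known from testis, had 2, 2 and 88, the latter in 77 lymph node cells. Cox7b2, Cox8b and Cox8c had no UMI in any library, which allows a share of cells with a UMI of up to 1.01% in epidermis and 0.343% in dermis, against 0.0319% in lymph node.

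Per cell, the median shares had the order of the summed libraries. Each cell was thinned at random to 1500 UMIs, which left 262, 828 and 9308 cells. Such thinning evens out counting noise but leaves the expected share of a cell unchanged. It therefore does not remove a link between share and depth. The median nuclear share was 1.80% in epidermis (middle 50% of cells 1.40 to 2.18) and 1.53% in dermis (1.20 to 1.93), against 2.20% in lymph node (1.93 to 2.53). The median mitochondrial share was 4.0% (3.02 to 4.92), 4.47% (3.60 to 5.80) and 2.27% (1.87 to 2.73). Unthinned medians were 1.78%, 1.56% and 2.21% for the nuclear and 3.98%, 4.54% and 2.27% for the mitochondrial members. After removal of shared barcodes, the thinned medians were 1.73% and 1.53% for the nuclear and 4.07% and 4.47% for the mitochondrial members in epidermis (232 cells) and dermis (811). The skin cells overlapped each other widely, and the mitochondrial shares of the middle 50% of skin cells lay above those of lymph node. Cells of 1 library are not replicates, so these ranges describe the cells only.

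**Figure D4:**
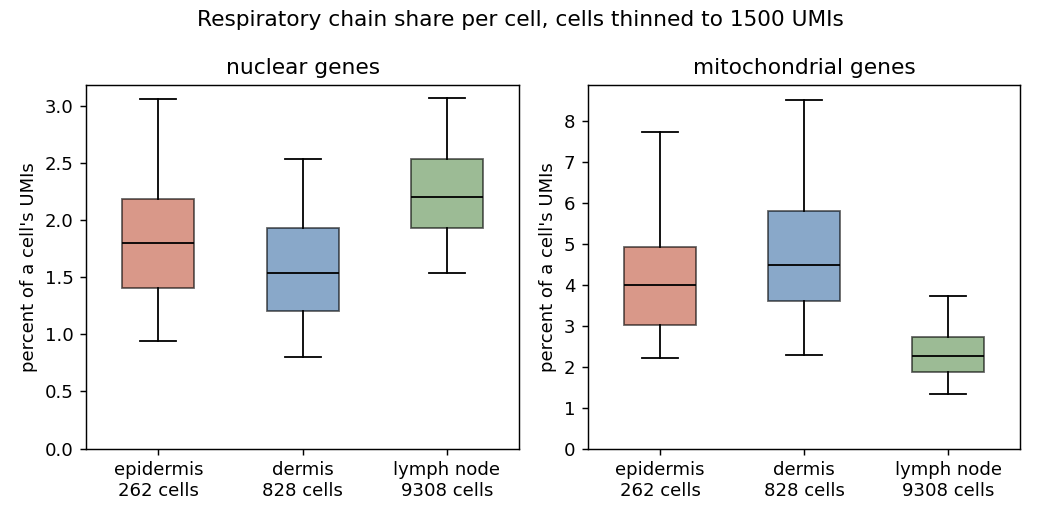
Percent of a cell's UMIs on the nuclear (left) and the mitochondrial (right) respiratory chain genes in epidermis, dermis and lymph node, cells thinned to 1500 UMIs; boxes span the 25th to 75th percentile, the line is the median and whiskers reach the 5th and 95th percentile. Median nuclear shares are 1.80%, 1.53% and 2.20%, and median mitochondrial shares 4.0%, 4.47% and 2.27%.

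Within the skin libraries the nuclear share differed with the depth of a cell. From the shallowest to the deepest quartile of cells it went from 1.42% to 2.28% in epidermis and from 1.39% to 1.81% in dermis, while in lymph node it went from 2.22% to 2.37%. The mitochondrial share went from 5.89% to 3.69% in epidermis, from 6.20% to 4.12% in dermis and from 2.55% to 2.32% in lymph node. Without the shared barcodes the nuclear share went from 1.35% to 1.96% in epidermis and from 1.31% to 1.81% in dermis. Cells with at least 3 UMIs of 10 cell cycle genes had a nuclear share of 2.63% in epidermis (30 cells) and 1.94% in dermis (56 cells), against 2.80% in lymph node (153 cells). The other cells had 1.84%, 1.61% and 2.26%, in the same order of tissues. The cycling cells were also deeper, with median depths of 13474, 6337.5 and 7879 UMIs against 6527, 4657 and 3004. The shared barcodes included 18 of the 30 cycling cells in epidermis and 13 of the 56 in dermis. Without them the 12 cycling epidermal cells had a nuclear share of 2.02% at a median depth of 2653.5 UMIs, below the 6532 UMIs of the other 244 cells at 1.81%. The 43 dermal ones had 1.96% at 8308 UMIs, against 1.60% at 4718 UMIs in the other 791. The cell cycle list summed to 666, 165 and 138 CPM, and without the cycling cells 17 rather than 6 nuclear members of the epidermal library lay 1.5-fold or more below lymph node.

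Barcodes above the mitochondrial limit, which were left out of all other values except those given with no limit, had a different balance in skin than in lymph node. In barcodes with 10 to 20% mitochondrial UMIs the nuclear members made up 0.920% of the UMIs outside the mitochondrial genes in epidermis (36 barcodes), 0.899% in dermis (118) and 2.03% in lymph node (16). In the barcodes just under the limit, with 6 to 10%, the values were 2.07%, 1.62% and 2.16%. In skin the nuclear share outside the mitochondrial genes was thus lower above the limit, and in lymph node the intervals on both sides of it overlapped (1.86 to 2.21 and 2.08 to 2.24). With shared barcodes left out, the values just under the limit were 1.85% in epidermis and 1.59% in dermis. Median depths above the limit were 1861.5, 1529.5 and 1572.5 UMIs and below it 2834, 3416 and 2199. The part of depth in this drop was not tested.

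**Figure D5:**
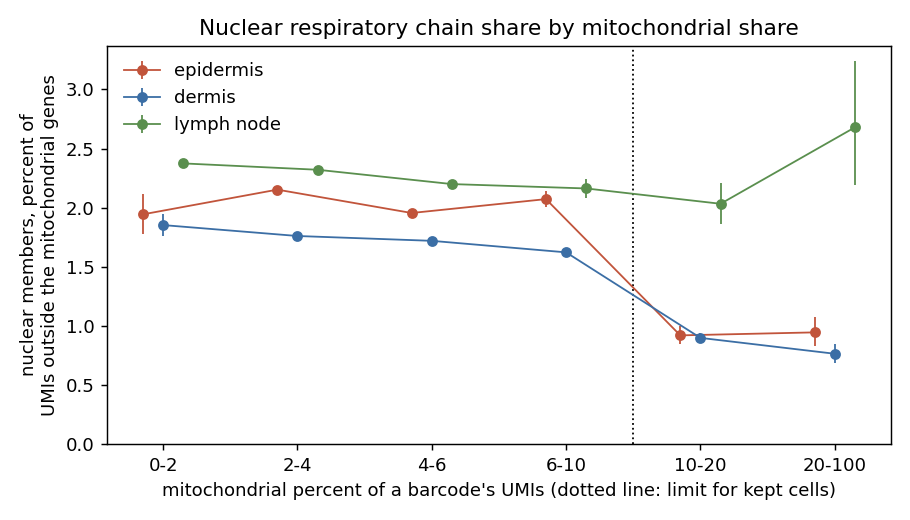
Nuclear respiratory chain UMIs as a percent of the UMIs outside the mitochondrial genes (y axis), for all barcodes grouped by their mitochondrial percent (x axis), by library, with exact 95% intervals of counting error; the dotted line marks the 10% limit for kept cells. Epidermis and dermis drop from 2.07% and 1.62% just below the limit to 0.920% and 0.899% just above it, while the highest lymph node group holds 3 barcodes.

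The nuclear members differed together, so their promoters were searched for 3 motifs tied to respiratory chain genes. RefSeq promoters (GRCm38.p6, 250 bases before to 50 after the start) were given for 77 of the 96 nuclear members. The motif of NRF1, a factor long known for its sites at such genes, was searched by its core letters CGCATGCG, which read alike on both strands. They occurred in 10 of 77 members (13%) and in 2.54% of 17492 promoters of protein-coding genes. The ETS motif CCGGAAGT, bound by the factor GABP, occurred in 5 members (6.49%) and 5.29% of all. The YY1 motif AAGATGGC occurred in 8 members (10.4%) and 3.22% of all. Both strands were searched, and any pair of these strings can share at most 1 base at their ends. A match describes the letters of the window and does not show a bound site.

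The members with the NRF1 letters were Atp5g2, Atp5k, Atp5l, Cox6a1, Ndufa8, Ndufa11, Ndufaf4, Ndufaf5, Uqcr11 and Uqcrc1. Their log2 ratios of epidermis over dermis ranged from -0.28 (Ndufaf5) to 0.59 (Atp5g2). The 85 nuclear members with at least 10 CPM in 1 library ranged from -0.28 to 0.98. Ndufaf5 and Atp5g2 stood at -0.61 and 0.49 without the shared barcodes. Shown are the 100 bases before the RefSeq start for the 4 in which these letters, in capitals, lie inside that stretch, to show how close to that start they fall. They are Atp5g2 (chr15:102671048-102671147, minus strand), Atp5k (chr5:108434400-108434499, minus strand), Ndufa11 (chr17:56717662-56717761, plus strand) and Ndufa8 (chr2:36049339-36049438, minus strand). The GENCODE genes of Atp5g2, Atp5k and Ndufa8 begin further upstream and include these letters.
Atp5g2: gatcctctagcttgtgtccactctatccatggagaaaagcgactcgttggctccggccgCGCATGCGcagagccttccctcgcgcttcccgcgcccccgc
Atp5k: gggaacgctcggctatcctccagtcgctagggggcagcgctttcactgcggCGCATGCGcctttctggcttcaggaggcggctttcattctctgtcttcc
Ndufa11: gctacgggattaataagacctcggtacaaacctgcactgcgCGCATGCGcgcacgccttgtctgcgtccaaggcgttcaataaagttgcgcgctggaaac
Ndufa8: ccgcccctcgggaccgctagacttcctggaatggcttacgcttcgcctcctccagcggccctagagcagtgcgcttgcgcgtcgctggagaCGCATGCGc
Ndufa11, an accessory subunit of complex I, stood at 171 CPM in epidermis and 134 in dermis, against 185 in lymph node, close to the median nuclear member.

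Other genes of mitochondrial respiration were described from lists chosen by function. The mitochondrial ribosome, which translates the 13 mitochondrial genes, had medians in the same directions as the nuclear members. Of its 74 genes with a usable level 24 were at least 1.5-fold higher and 0 lower in epidermis than in dermis, against 15.6% and 10.2% of all genes, with a median log2 ratio of 0.49. In epidermis 14 were lower than lymph node and 0 higher, against 11% and 34.8% of all genes, with a median of -0.28. In dermis 49 were lower and 0 higher, against 21.8% and 35.4%, with a median of -0.76. Once shared barcodes were removed, 10 were higher in epidermis than in dermis, and 29 and 50 were lower than lymph node in epidermis and dermis, with medians of 0.29, -0.51 and -0.80. Mrpl30 stood at 106 CPM in epidermis and 60.5 in dermis, against 174 in lymph node, and Mrpl17 at 38.1, 25.5 and 67.7 CPM. The log2 ratio of Mrpl17 in epidermis over lymph node was -0.83 in all cells, -1.43 without the shared barcodes and -1.48 without cycling cells.

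Assembly factors outside the name rule had medians of 0.32, -0.17 and -0.58 in the 3 comparisons, beside 0.08, 0.22 and 0.14 for all genes. Of 30 with a usable level, 7 were at least 1.5-fold higher and 1 lower in epidermis than in dermis, against 15.6% and 10.2% of all genes. In epidermis 4 were higher and 3 lower than lymph node, against 34.8% and 11%, so the count lower was at the background. In dermis 2 were higher and 15 lower, against 35.4% and 21.8%. After removal of shared barcodes, the counts were 3 and 2, 3 and 8, and 2 and 15, with medians of 0.21, -0.30 and -0.56. Uqcc3, which helps to build complex III around cytochrome b, stood at 65.3 CPM in epidermis and 47.1 in dermis, against 140 in lymph node. Ttc19, also a complex III factor, went the other way, at 40.4, 68.9 and 26 CPM.

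Genes for mitochondrial transcription and RNA upkeep numbered 16 with a usable level, and their medians were 0.35, -0.02 and -0.32 in the same 3 comparisons. At 1.5-fold, 3 were higher and 1 lower in epidermis than in dermis, against 15.6% and 10.2% of all genes, which is near the background. In epidermis 1 was higher and 5 lower than lymph node, against 34.8% and 11%, and in dermis 1 higher and 6 lower, against 35.4% and 21.8%. Without the shared barcodes the counts were 1 and 0, 1 and 4, and 1 and 6, with medians of 0.24, -0.06 and -0.37. The median of epidermis over lymph node lay above 0, at up to 0.07, with the mean of cell CPM and without the cells above the 95th UMI percentile. Tfam, which packs and transcribes mitochondrial DNA, stood at 44.4 CPM in epidermis and 32.4 in dermis, against 59.9 in lymph node. Slirp, which steadies mitochondrial messenger RNA, stood at 57.1, 38.0 and 87.5 CPM. Both thus had their lowest level in dermis, the library with the highest mitochondrial share.

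The citric acid cycle feeds the chain with NADH and succinate, and its 18 genes differed little as a list, with medians of 0.11, 0.04 and -0.18. At 1.5-fold, 2 were higher in epidermis than in dermis and 0 lower, against 15.6% and 10.2% of all genes. In epidermis 1 was higher than lymph node and 0 lower, against 34.8% and 11%, and in dermis 1 was higher and 3 lower, against 35.4% and 21.8%. With shared barcodes left out, the counts were 1 and 0, 1 and 4, and 1 and 3, with medians of 0.02, -0.16 and -0.23. The median of epidermis over lymph node lay below 0 in 10 of 13 alternatives, down to -0.44 with TMM. Suclg1, a subunit of succinate-CoA ligase, stood at 94.8, 50.8 and 104 CPM and shared the pattern of the nuclear members. Ogdh, the first enzyme of the 2-oxoglutarate dehydrogenase complex, stood at 70.7, 80.1 and 32.8 CPM, or 2.16-fold (1.81 to 2.55) and 2.44-fold (2.16 to 2.75) above lymph node.

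Electron carriers and nucleotide exchangers, 22 with a usable level, had medians of 0.09, 0.06 and -0.22. At 1.5-fold, 4 were higher and 3 lower in epidermis than in dermis, against 15.6% and 10.2% of all genes, which is near the background. In epidermis 2 were higher and 3 lower than lymph node, against 34.8% and 11%, and in dermis 4 higher and 7 lower, against 35.4% and 21.8%. Once shared barcodes were removed, with 21 genes at a usable level, the counts were 2 and 3, 1 and 5, and 4 and 7, with medians of -0.06, -0.13 and -0.25, so that the first 2 turned. Cycs, which encodes the cytochrome c that links complexes III and IV, stood at 127, 125 and 182 CPM, and at 92.9 and 122 in the skin libraries without the shared barcodes. Slc25a5, an ATP and ADP exchanger of the inner membrane, stood at 380, 316 and 668 CPM. Coq10b, which binds the electron carrier coenzyme Q, ran against both, at 124, 311 and 19.9 CPM, or 6.22-fold (5.38 to 7.17) and 15.6-fold (14.2 to 17.2) above lymph node.

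Regulators of mitochondrial gene expression stood mostly in the opposite order to the nuclear members. Of 12 with a usable level, 8 were at least 1.5-fold higher and 1 lower than lymph node in each skin library, against 34.8% and 11% of all genes in epidermis and 35.4% and 21.8% in dermis (medians 0.83 and 1.25). In epidermis 1 was higher and 6 lower than in dermis, against 15.6% and 10.2% (median -0.51). With TMM 3 rather than 8 were higher than lymph node in epidermis. After removal of shared barcodes, 13 had a usable level, and 8 were higher and 1 lower than lymph node in each skin library, with 1 higher and 7 lower in epidermis than in dermis. Atf4, a stress response factor, stood at 84.8 CPM in epidermis and 234 in dermis, against 43.6 in lymph node. Hif1a, a hypoxia response factor, stood at 229, 373 and 65.3 CPM, and Yy1 at 117, 144 and 56.8 CPM. Myc, a transcription factor known to promote mitochondrial biogenesis, was the exception, at 27.7, 16.0 and 52.3 CPM. Gabpb1, a subunit of GABP, stood at 35.4, 69.1 and 36.2 CPM, and its log2 ratio of epidermis to dermis was -0.97 in all cells and -0.25 in those with Xist UMIs but none from Y-linked genes.

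Transcripts of the immediate early and heat shock genes, which respond to handling as well as to signals in tissue, had the order of Coq10b, Atf4 and Hif1a. The 10 listed genes were all detected in skin and summed to 4005 CPM in epidermis and 9501 in dermis, against 469 in lymph node. Their part in these results, and in the nuclear and mitochondrial shares, was not tested.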

How the data were processed

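The authors deposited UMI counts that were not normalized, for barcodes they had already called as cells. Per the submitters' processing notes, reads were mapped to mm10 with Cell Ranger. The file headers name version 4.0.0 for both skin libraries. For lymph node the version is not given in the sources.

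Barcodes under 500 UMIs or above 10% mitochondrial UMIs were left out. No doublet caller was run, and doublets were left in. UMIs were summed per library and scaled to CPM. Ratios carry exact 95% binomial-split intervals and shares exact Clopper-Pearson intervals. Shares of 0 carry a limit of 3 counts. The ratio step was tested on simulated data. Without replicates no test was run. The members, lists and alternatives were chosen with earlier results of these data known.

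Named were the 5 highest and 5 lowest nuclear ratios per comparison at 50 CPM or more, all mitochondrial genes, fixed isoform sets, and up to 3 genes per other list at 50 CPM or more with the largest ratios. The 4 assembly factors past 1.5-fold, the scarce isoforms under the limit and members with promoter matches were named after their values were seen. For 25 of the 85 nuclear members a pseudogene at least 95% identical over at least 90 of the last 300 transcript bases exists, and Ndufb2 and Ndufb8 share exon bases with another gene on the same strand. These counts are uncertain to that extent; the median log2 ratios with and without such pseudogenes were 0.31 and 0.32, -0.18 and -0.20, and -0.55 and -0.55. Of the 13 mitochondrial genes, 7 have such a copy. Of 7 T cell genes listed, 4 were in the table. Intervals came from scipy 1.17.1 under Python 3.11.15, with pandas 2.3.3 and numpy 2.4.6. TMM factors came from edgeR 4.0.16 (R 4.3.3), and plots from matplotlib 3.10.9.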

Additional observations from a re-analysis of the deposited data

How the results depend on the processing

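The nuclear and mitochondrial member medians kept their direction in all 3 comparisons under the alternatives run, whereas the median of all genes turned with TMM. Medians near 0 also turned, all in epidermis against lymph node unless said: complex IV in 7 of 13 alternatives, the assembly and accessory members in 1, the citric acid cycle in 10, mitochondrial transcription and RNA upkeep in 2, and carriers in 6, and in 3 of 15 in epidermis against dermis. No paired analysis was possible because each tissue had 1 library. Removal of shared barcodes, in 2 forms, was chosen after seeing the data. In what follows, counts are members at least 1.5-fold apart and medians are log2 ratios. Except where said, the percentages of all genes given above belong to all kept cells scaled to CPM. They do not apply to counts under other settings. For nuclear members higher in epidermis than in dermis, the count of 6 became 2 with TMM, 2 with median-of-ratios scaling, 24 with totals without mitochondrial and ribosomal protein genes, 3 at a 5% mitochondrial limit, 12 with the mean of cell CPM, 2 at 50 CPM, 0 at 2-fold, 3 in cells with Xist only, 23 in cells with Y-linked UMIs only and 3 without shared barcodes. The count lower went from 0 to 1 with TMM, with median-of-ratios, in cells with Y-linked UMIs only, with no minimum level, without cycling cells and without shared barcodes. The count lower in epidermis than in lymph node went from 6 to 58 with TMM, 38 with median-of-ratios, 21 with the reduced totals, 11 with the mean of cell CPM, 12 without cells above the 95th UMI percentile, 17 without cycling cells, 19 without shared barcodes and 1 at 2-fold. For dermis below lymph node 41 became 70, 63 and 67 under the 3 scalings and 5 at 2-fold. With no minimum level, 3 nuclear members were higher than lymph node in each skin library. The nuclear medians against lymph node became -0.67, -0.55 and -0.38 in epidermis and -0.92, -0.81 and -0.86 in dermis with TMM, median-of-ratios and the reduced totals. Mitochondrial medians with these scalings became -0.26, -0.26 and -0.039 for epidermis against dermis, 0.89, 1.01 and 1.18 for epidermis against lymph node, and 1.20, 1.31 and 1.27 for dermis against lymph node. At the 5% limit they were -0.032, 1.22 and 1.30, with no limit 1.67 and 1.87 against lymph node, with the mean of cell CPM 1.52 and 1.67, and for epidermis without shared barcodes 1.41. The mitochondrial count higher in epidermis than in dermis went from 0 to 1 with the reduced totals, at the 5% limit and in cells with Xist only. The cause of these moves was not tested, apart from the fewer genes or cells that some settings leave by construction. Depth limits epidermis most, where 10 CPM is 22.1 UMIs.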
